A study of Mus musculus with 11 samples.

Results

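In neuroblastomas that had received the curaxin CBL0137, a dose of panobinostat given with it was accompanied by higher RNA of interferon-stimulated, antigen presentation, macrophage, endothelial and fibroblast genes and by lower RNA of sympathetic neuroblast, neuronal, cell division and ribosome assembly genes. The comparison set 3 tumours given both drugs against 3 given CBL0137 alone, which is 6 of the 11 tumours sequenced. Its members were all 15497 of 24411 genes in the authors' table that reached 1 TPM in at least 2 of the 11 libraries. TPM is a gene's RNA corrected for transcript length and expressed as a share of a fixed library total, so a rise in some genes lowers the share of others.

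All mice were homozygous for the Th-MYCN transgene, in which the tyrosine hydroxylase promoter drives MYCN in sympathetic precursors, and all carried a spontaneous tumour of about 5 mm. Tumours were taken 16 h after a single dose of CBL0137 (40 mg/kg, intravenous, n = 3) or of CBL0137 and panobinostat together (40 mg/kg and 5 mg/kg intraperitoneal, n = 3). Panobinostat alone (5 mg/kg, n = 2, replicates 1 and 3) and vehicle (intraperitoneal, n = 3) are used beside them. Panobinostat replicate 2 is not analysed here, and the labels do not say whether mice given CBL0137 alone also received an intraperitoneal injection. Each library came from 1 whole tumour, with the blood vessels, connective tissue and immune cells it held. The labels number the replicates without saying that each came from another mouse, while the series' design gives 3 mice per group.

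Panobinostat blocks the zinc-dependent histone deacetylases, enzymes that remove acetyl groups from histone tails and other proteins. Acetylated histones accumulate on chromatin when they are inhibited, and many genes then rise while others fall. CBL0137 inserts into DNA, loosens nucleosomes and holds FACT, a histone chaperone, on the opened chromatin. Neuroblastoma arises from the sympathetic lineage of the neural crest, and its cells depend on MYCN and on a small circuit of lineage factors that includes Hand2 and Gata3.

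Values per tumour are given in replicate order, 1 to 3. Between 13316 and 14078 genes reached 1 TPM after CBL0137 and between 14632 and 14675 after both drugs, and Pearson's r of log2(TPM + 1) between replicates was 0.964 to 0.983 and 0.942 to 0.955. The tissue labels held, in that the neuroblast genes Phox2a, Hand2, Gata3, Th, Dbh, Ddc and Isl1 were detected in all 6 tumours. A few libraries stood apart. Combination replicate 2 held adrenal cortex RNA (the 10 listed markers summed to 7405 TPM there and ranged from 25.7 to 34.9 TPM in the other 5 tumours). Combination replicate 1 and CBL0137 replicate 2 held skeletal muscle RNA (Acta1 at 213 and 144 TPM, and 1.66 to 3.33 TPM in the rest of these 6 tumours). Of the tumours used beside them, panobinostat replicate 3 held far more (Acta1 at 3110 TPM), and vehicle replicate 1 had 19.8 TPM. CBL0137 replicate 3 had the most B cell RNA (Cd79b at 53.6 TPM, followed by combination replicate 1, with 0.97 to 8.92 TPM in the rest of the 6), and it lay between its own group and the combination in most immune and stromal lists. Histone cluster genes took 9.13, 8.77 and 6.41% of all TPM after CBL0137 and 3.63, 1.26 and 3.95% after both drugs.

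A gene is said to have risen or fallen where limma's test on log2(TPM + 1) gave a Benjamini-Hochberg adjusted p under 0.05 over all 15497 genes, and fold changes below are on that scale, which understates the change of genes near 1 TPM. On that rule 5146 genes rose (33.2%) and 3678 fell (23.7%) when panobinostat was added, and the counts for gene lists below are read against these shares. At least 2-fold changes were more often rises, with 3229 genes up (20.8%) and 1101 down (7.1%), and 4-fold changes were nearly all rises, with 823 up (5.31%) and 36 down (0.232%). The median over all tested genes was 0.12 (log2). With TMM factors it was -0.01 and the calls were 4560 rises and 4743 falls, and with quantile normalization it was -0.12 with 3892 rises and 5361 falls, so the balance between rises and falls depends on the scaling. In 5714 genes (36.9%) all 3 combination tumours lay above all 3 CBL0137 tumours, and in 4436 (28.6%) all lay below. Without combination replicate 2, 4438 genes rose and 3359 fell, and without CBL0137 replicate 3, 5169 rose and 3506 fell.

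Among the genes ranked, the furthest falls included many genes of neurons and their precursors. Agtr2, the type 2 angiotensin receptor (chromosome X, 21484624 to 21488833, GRCm38.p6), had 1729.8, 1461 and 947 TPM after CBL0137 and 301, 139 and 256 TPM after both drugs, a log2 change of -2.60 ± 0.28 (SE, limma adjusted p = 0.000262). Stmn4, a stathmin that binds tubulin (chromosome 14, 66344210 to 66361680), had 147, 163 and 127 TPM after CBL0137 and 24.2, 17.6 and 39.0 TPM after both drugs, a log2 change of -2.46 ± 0.25. Tubb3, the neuronal beta-tubulin (chromosome 8, 123411553 to 123422015), had 841, 861 and 647 TPM after CBL0137 and 165, 75.0 and 228 TPM after both drugs, a change of -2.45 ± 0.32. The ranking rule fixed that all 3 combination tumours lay below all 3 CBL0137 tumours, and in each of these genes combination replicate 2 was lowest. Only part of the called genes without overlap were ranked, 3239 of 3614 falls and 3978 of 4939 rises. A minimum mean of 5 TPM applied. The microRNA gene Mir1197 changed by -5.46 (limma adjusted p = 0.00326) without overlap and was not ranked. The 12 are therefore not the largest falls of all tested genes. Stmn3 and Stmn1 fell by 2.33 and 2.21, Dcx, a microtubule protein of migrating neurons, by 2.26, and Kcnip1, a subunit of A-type potassium channels, by 2.37. Cplx1, which clamps synaptic vesicle fusion, fell by 2.23, Adcyap1, the neuropeptide PACAP, by 2.29, and Dusp9, a phosphatase of MAP kinases, by 2.28. Ppp1r17, a protein phosphatase inhibitor, and Arhgap36, an activator of hedgehog signalling, completed the 12 with falls of 2.51 and 2.24, and limma's adjusted p over the 12 ran from 0.000135 (Stmn3) to 0.00450 (Arhgap36).

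**Figure D1:**
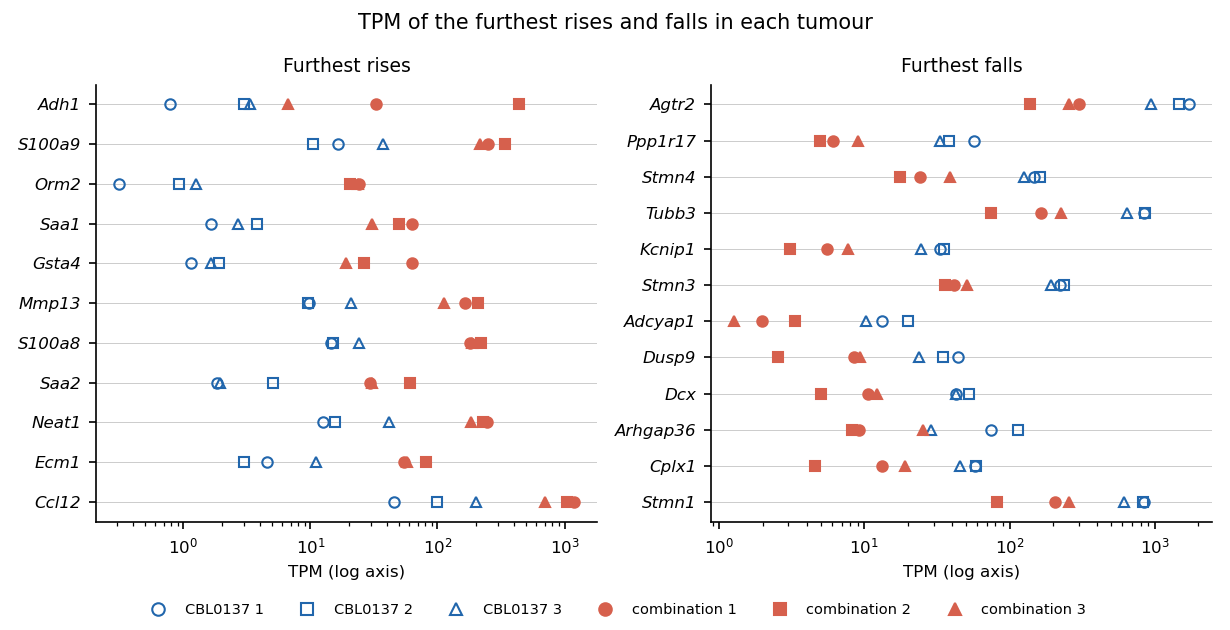
TPM (log axis) of the furthest rises (left) and furthest falls (right) in each of the 3 CBL0137 tumours (open symbols) and 3 combination tumours (filled symbols), 1 symbol per tumour. Only genes whose groups did not overlap could enter the ranking, and only part of those were ranked. Atp6v0c-ps2 is left off because it is listed at 0 TPM in CBL0137 replicates 1 and 2.

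Among the genes ranked, the furthest rises included acute-phase, neutrophil and matrix genes. S100a9, a subunit of calprotectin of neutrophils and monocytes (chromosome 3, 90692630 to 90695721), had 16.6, 10.5 and 37.3 TPM after CBL0137 and 249.7, 339 and 215 TPM after both drugs, a log2 change of 3.74 ± 0.62 (SE, limma adjusted p = 0.000838). Its partner S100a8 rose by 3.42 ± 0.46. Mmp13, a collagenase (chromosome 9, 7272514 to 7283333), had 9.78, 9.55 and 20.8 TPM after CBL0137 and 164, 209 and 112 TPM after both drugs, a change of 3.54 ± 0.29, and Ecm1, a matrix protein, rose by 3.31. Neat1, the long noncoding RNA that builds paraspeckles (chromosome 19, 5824708 to 5845480), had 12.7, 15.6 and 41.5 TPM after CBL0137 and 246, 227 and 182 TPM after both drugs, a change of 3.36 ± 0.43 (limma adjusted p = 0.000328). The monocyte chemokine Ccl12 rose by 3.28, from 116 ± 78.8 to 981 ± 255 TPM (mean ± SD, n = 3 each). Orm2, Saa1 and Saa2, acute-phase proteins, rose by 3.73, 3.69 and 3.39 from at most 5.07 TPM, and they are uncertain as single genes because Orm1 and the other Saa genes are near-identical copies. Saa2 missed the threshold without CBL0137 replicate 1 or 3 or combination replicate 2 (adjusted p = 0.0660, 0.0560 and 0.0701). Gsta4, a glutathione transferase, rose by 3.69. Adh1, an alcohol dehydrogenase, had 0.780, 2.98 and 3.37 TPM after CBL0137 and 32.7, 441 and 6.65 TPM after both drugs, a rise of 3.95 ± 1.21 with its highest value in replicate 2, the tumour with adrenal cortex RNA, and it missed the threshold without CBL0137 replicate 1 (adjusted p = 0.0635). The pseudogene Atp6v0c-ps2 rose by 4.61, from 0, 0 and 59.0 to 141, 99.4 and 61.0 TPM, and shares sequence with Atp6v0c, so its value depends on how reads were divided between them.

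The targets of panobinostat themselves were lower on balance. Of 11 histone deacetylase genes, 6 fell and 2 rose, with a median of -0.54. Hdac2, a class I enzyme (chromosome 10, 36974297 to 37001889), had 276, 268 and 205 TPM after CBL0137 and 119.7, 99.3 and 137 TPM after both drugs, a log2 change of -1.07 ± 0.14 (SE, limma adjusted p = 0.000333). Its close relative Hdac1 had 53.8, 49.3 and 49.8 TPM after CBL0137 and 51.6, 46.5 and 43.2 TPM after both drugs and did not pass (log2 -0.11, adjusted p = 0.449). The groups were apart for Hdac2 and interleaved for Hdac1. Hdac3, the enzyme of the NCoR complex, fell by 0.54 and Hdac11 by 0.99, while Hdac7, a class II enzyme of endothelial and immune cells, rose by 0.93 and Hdac8 by 0.45. In the complexes that hold deacetylases on chromatin, 7 of 26 genes fell, a share near that of all tested genes, and 4 rose (median -0.07). The remodeler Chd3 fell by 0.89 and the histone-binding Rbbp4 by 0.74, whereas Rest, the repressor of neuronal genes, went from 2.25, 2.57 and 6.79 to 16.2, 19.2 and 15.3 TPM, a change of 1.99 ± 0.29, and Mbd2, a reader of methylated DNA, rose by 0.95. Of 14 acetyltransferases and bromodomain readers, 6 fell and 2 rose. Kat2b rose by 1.02, and Kat8, Hat1 and Brdt fell by 0.50, 0.40 and 0.62, the last of these from under 5 TPM. The list had 1 fall without CBL0137 replicate 1 and 3 without combination replicate 1.

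The subunits of FACT, the chaperone that CBL0137 engages, fell when panobinostat was added. Ssrp1, a FACT subunit (chromosome 2, 85037120 to 85047114), had 205, 194 and 154 TPM after CBL0137 and 110.2, 85.5 and 116 TPM after both drugs, a log2 change of -0.82 ± 0.14 (SE, limma adjusted p = 0.000849), and the other subunit, Supt16, had 139, 128 and 103 TPM after CBL0137 and 80.6, 61.1 and 82.9 TPM after both drugs, a change of -0.71 ± 0.15 (adjusted p = 0.00240). The groups did not overlap for either gene, and CBL0137 replicate 3 was the lowest of its group in both. Over FACT and histone chaperones 16 of 22 fell (median -0.82), among them nucleophosmin Npm1 from 1637 ± 190.5 to 770.4 ± 155 TPM, Npm3 by 1.37, Nap1l4 by 0.82 and Anp32e, which removes H2A.Z, by 1.00. The H3.3 chaperone Daxx was the exception, with 28.3, 24.8 and 45.0 TPM after CBL0137 and 108, 80.0 and 56.0 TPM after both drugs and a rise of 1.29.

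Histone genes were lower in both classes. Of replication-independent histones 7 of 12 fell. H2afz, which encodes H2A.Z, had 1912, 1676 and 1268 TPM after CBL0137 and 656, 456 and 641 TPM after both drugs (log2 -1.47 ± 0.18), the macroH2A gene H2afy2 fell by 1.81, H2afv by 0.79 and H3f3a, an H3.3 gene, by 0.72. The linker histone H1f0, a gene often raised by deacetylase inhibitors in cultured cells, had 226, 225 and 150.3 TPM after CBL0137 and 137, 122 and 198 TPM after both drugs and did not pass (log2 -0.40, adjusted p = 0.127). Histone cluster genes, whose RNA is made in S phase, fell in 62 of 68 members with a median of -1.63, and in 62 with a median of -1.07 without combination replicate 2. The list's median relative to the CBL0137 mean was -2.82 in that tumour and -1.14 in combination replicate 1. Many of these genes are near-identical copies, so they are given as a class.

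**Figure D2:**
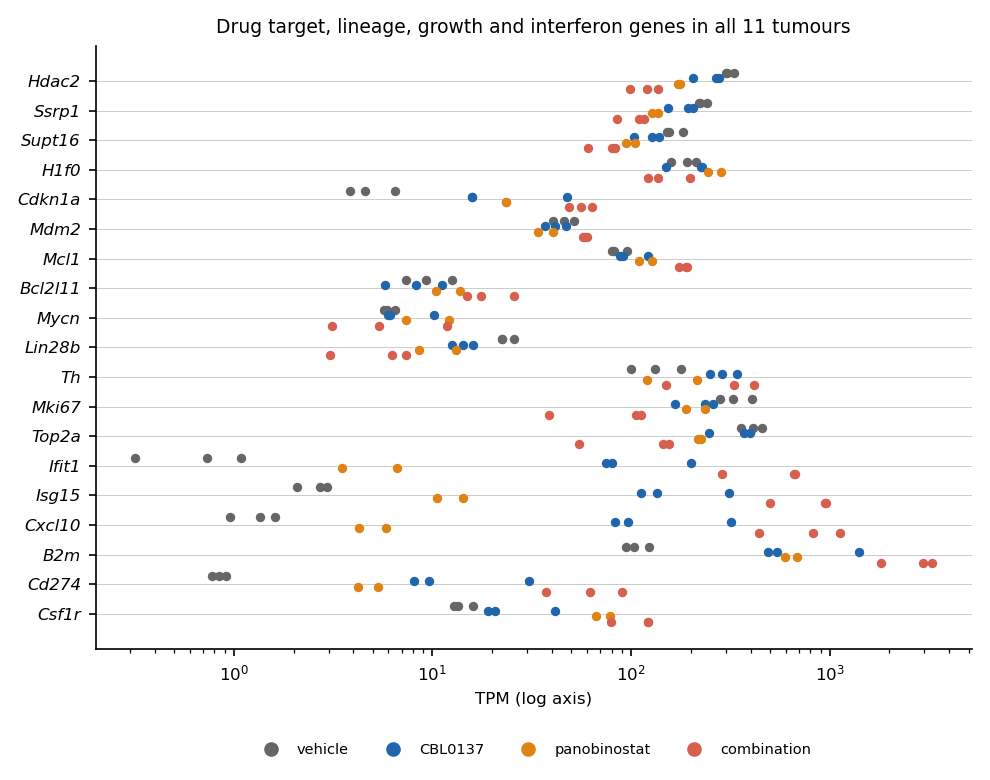
TPM (log axis) of 19 genes for drug targets, lineage, growth and interferon in all 11 tumours, coloured by group. Combination tumours lie below the CBL0137 tumours for Hdac2, Ssrp1, Supt16, Mki67 and Top2a and above them for the interferon genes, while Mycn and Th overlap.

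Interferon-stimulated genes, which were already higher after CBL0137 alone (list median 3.88 above vehicle), rose again in 58 of 59 members, with a median of 2.12 and no fall. Ifit1, which binds RNA lacking a host cap (chromosome 19, 34640889 to 34650009), had 75.2, 79.9 and 201 TPM after CBL0137 and 659, 667 and 289 TPM after both drugs, a log2 change of 2.23 ± 0.43 (SE, limma adjusted p = 0.00181). Isg15, a ubiquitin-like modifier (chromosome 4, 156199424 to 156200818), had 134, 112 and 313 TPM after CBL0137 and 944, 961 and 498 TPM after both drugs, a change of 2.19 ± 0.37. Both genes were lowest in replicates 1 and 2 of CBL0137 and highest in replicates 1 and 2 of the combination, with replicate 3 of either group in between and no overlap. Irf7, the factor that amplifies interferon transcription, rose by 2.02 and Oas3, which makes the activator of RNase L, by 2.68 (from 5.49, 6.65 and 18.2 to 83.5, 72.7 and 39.5 TPM). The RNA sensors Ifih1 and Dhx58 rose by 2.42 and 2.45 and the DNA-binding Ifi204 by 2.41. Irf9 was the 1 member that did not pass (42.8, 36.3 and 70.5 TPM after CBL0137 and 76.2, 88.1 and 59.5 TPM after both drugs, adjusted p = 0.0526). The list's median was -0.44, -0.47 and 0.96 relative to the CBL0137 mean in the CBL0137 tumours and 2.41, 2.43 and 1.49 in the combination tumours, and 59 of 59 rose without CBL0137 replicate 3.

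Many promoters of these genes hold a short motif. The list was made of genes known to be induced by interferon, so the motif's share describes the list and not the change. The interferon-stimulated response element core, GAAA followed by any 2 bases and GAAA and searched on both strands with overlapping matches allowed, lay in 26 of 53 RefSeq windows (49.1%) of the 44 members with an entry, against 3.14% of all 14728 windows of tested genes, 4.48% of those of genes that rose and 2.42% of those of genes that fell. A window runs from 250 bases before a RefSeq start to 50 after it, on GRCm38.p6. The 3 promoters shown belong to the interferon genes of lowest adjusted p with a match in the 200 bases before the start and at most 30 bases of exon in that stretch. They are Rsad2 (chr12:26456453-26456652, minus strand), the antiviral enzyme viperin, which rose by 2.55, Slfn8 (chr11:83020811-83021010, minus strand), one of several close Schlafen copies, which rose by 2.31, and Isg15 (chr4:156200819-156201018, minus strand). Capitals mark the core on either strand, and in Isg15 3 matches overlap.
Rsad2: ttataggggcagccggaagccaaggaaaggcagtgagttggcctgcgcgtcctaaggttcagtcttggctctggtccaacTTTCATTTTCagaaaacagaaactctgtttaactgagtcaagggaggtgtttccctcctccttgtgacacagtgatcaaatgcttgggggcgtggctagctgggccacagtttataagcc
Slfn8: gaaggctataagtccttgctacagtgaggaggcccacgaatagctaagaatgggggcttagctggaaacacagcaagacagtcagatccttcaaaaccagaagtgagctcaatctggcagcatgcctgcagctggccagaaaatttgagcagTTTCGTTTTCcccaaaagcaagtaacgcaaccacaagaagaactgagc
Isg15: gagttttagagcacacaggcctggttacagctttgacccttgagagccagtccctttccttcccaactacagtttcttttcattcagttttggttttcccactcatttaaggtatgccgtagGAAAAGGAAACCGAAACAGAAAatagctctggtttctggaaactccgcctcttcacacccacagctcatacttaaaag

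Receptor, sensor and signalling genes of that response also rose, while its ligand genes did not pass. Of the interferon ligands, receptors and sensors 22 of 25 rose (median 1.58). Ifnar2, a chain of the type I receptor, had 30.2, 26.8 and 48.3 TPM after CBL0137 and 104, 132 and 93.2 TPM after both drugs (log2 1.65 ± 0.21), and Irf5, Mavs and Socs3, a transcription factor, the adaptor of RNA sensors and a feedback inhibitor, rose by 2.20, 1.34 and 1.78. The 3 ligand genes tested, Ifnb1, Ifna2 and Ifna4, did not pass, and Ifng, Ifnl2 and Ifnl3 were below the filter.

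Antigen presentation genes rose beside them. MHC class I and peptide loading genes rose in 19 of 20 members (median 1.87). B2m, the light chain of class I molecules, had 543, 491 and 1407 TPM after CBL0137 and 2949, 3281 and 1805 TPM after both drugs, a log2 change of 1.85 ± 0.36 (SE, limma adjusted p = 0.00198), and H2-K1, a heavy chain, had 125, 118 and 395 TPM after CBL0137 and 953, 885 and 457 TPM after both drugs, a change of 2.01 ± 0.44. CBL0137 replicate 3 was the highest of its group in both and stayed below every combination tumour. The peptide transporter Tap2 and the loading factor Tapbp rose by 2.53 and 2.29, and H2-D1 and H2-M3 by 1.88 and 1.85. Heavy chain genes are close paralogs, so their single values depend on how reads were divided. Class II genes, normally of professional antigen-presenting cells, rose in 7 of 10 members, with Cd74, H2-Aa, H2-DMa and H2-DMb1 at 1.88, 1.72, 1.74 and 2.00.

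Chemokines, NF-kB targets and checkpoint genes followed the same direction. Cxcl10, which attracts T cells through Cxcr3, had 96.6, 83.2 and 317 TPM after CBL0137 and 1133, 825 and 441 TPM after both drugs, a log2 change of 2.43 ± 0.48 (SE, limma adjusted p = 0.00191). In its list 26 of 33 rose (median 1.79) and Ccl25 fell, with Ccl9, Cx3cl1 and Il18 at 2.89, 2.63 and 2.04. NF-kB targets rose in 21 of 23 members (median 1.52), among them the regulators Bcl3 and Nfkbiz at 1.70 and 1.81, the adhesion molecule Vcam1 at 1.74 and Bcl2a1b at 1.68, which has near-identical copies. Checkpoint genes rose in 9 of 13 members. Cd274, which encodes PD-L1, had 9.67, 8.12 and 30.5 TPM after CBL0137 and 90.5, 62.4 and 37.5 TPM after both drugs, a change of 2.06 ± 0.44, with replicate 3 of CBL0137 close to replicate 3 of the combination but below it. Cd47, its receptor Sirpa, Cd80 and Vsir, listed as 4632428N05Rik, rose by 1.83, 1.91, 2.02 and 1.97, and the T cell receptors of these ligands, Pdcd1 and Ctla4, did not pass.

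**Figure D3:**
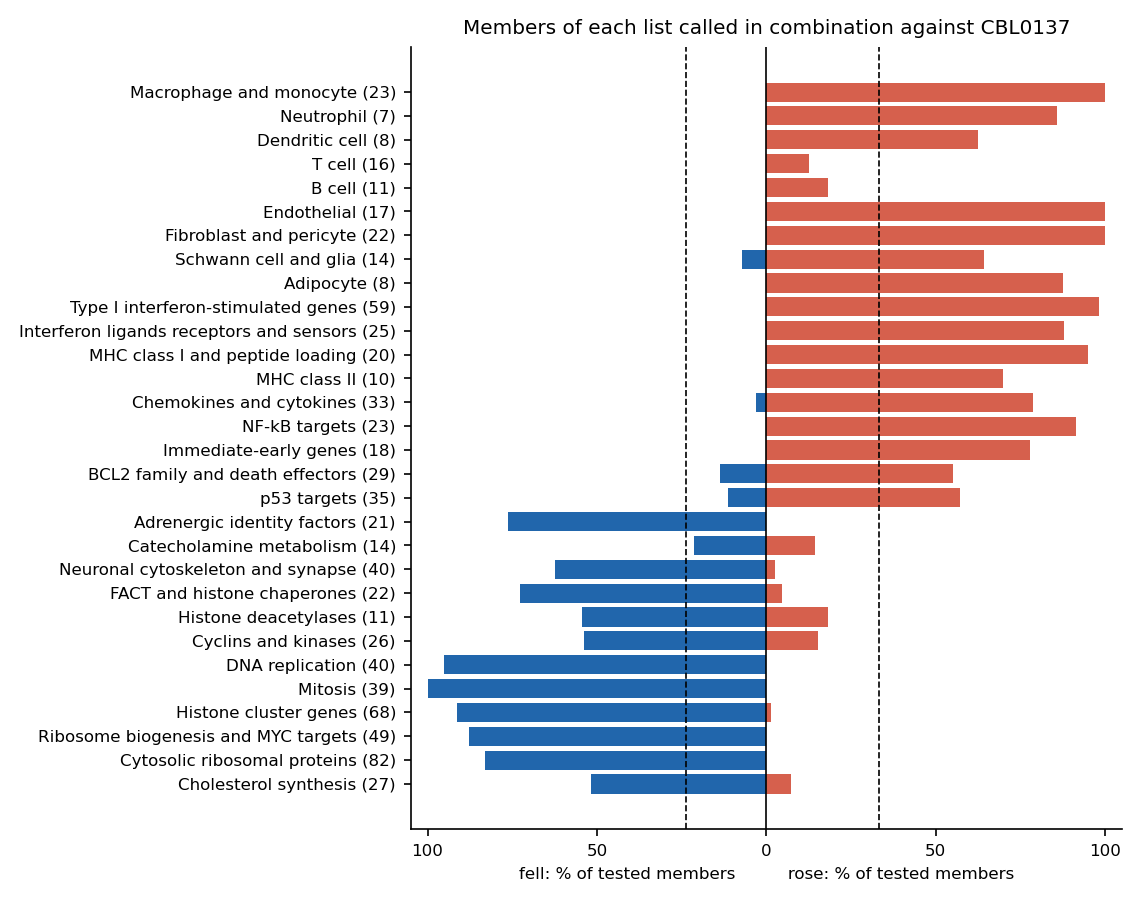
Share of tested members of each gene list (number tested in brackets) that rose (red, right) or fell (blue, left) in combination against CBL0137. Dashed lines mark the shares over all tested genes, 33.2% to the right and 23.7% to the left.

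Markers of several non-tumour cell types were higher in whole-tumour RNA, and more cells of a type and more RNA per cell cannot be told apart in such samples. All 23 macrophage and monocyte markers rose, with a median of 2.09, and their summed level was 2341 to 4771 TPM after CBL0137 and 9971 to 13958 TPM after both drugs. Ccr2, a chemokine receptor of monocytes, had 7.83, 10.2 and 12.9 TPM after CBL0137 and 149.9, 64.8 and 94.2 TPM after both drugs, a log2 change of 3.14 ± 0.32 (SE, limma adjusted p = 0.000262). Csf1r, the receptor for macrophage growth factor, had 20.7, 19.1 and 41.6 TPM after CBL0137 and 121, 122 and 79.6 TPM after both drugs (log2 2.01), and Cd68 and Fcer1g rose by 2.11 and 2.11. In none of these genes did the groups overlap. Neutrophil markers rose in 6 of 7 members (summed level 32.6 to 75.9 against 435 to 613 TPM), including Csf3r, Cxcr2 and Il1r2 at 2.08, 2.05 and 1.94, and dendritic cell markers in 5 of 8, including Itgax at 1.90 and Clec9a at 1.53.

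Stromal markers rose as completely. All 17 endothelial markers rose (median 2.08, summed level 144 to 383 against 714 to 1410.2 TPM). Vwf, the clotting protein of vessel walls, had 1.53, 0.940 and 3.72 TPM after CBL0137 and 14.1, 15.3 and 20.6 TPM after both drugs (log2 2.61 ± 0.30), and Eng, Tek and Egfl7 rose by 2.48, 2.31 and 1.59. All 22 fibroblast and pericyte markers rose (median 2.27, summed level 920.4 to 2116 against 6396 to 7458 TPM). Col1a2, a chain of fibrillar collagen, had 88.8, 72.5 and 214 TPM after CBL0137 and 840.4, 688 and 780.0 TPM after both drugs, a log2 change of 2.77 ± 0.34 (SE, limma adjusted p = 0.000294). Col6a1, Col6a3 and Fbln2 rose by 2.52, 2.75 and 2.24. Fat cell markers rose in 7 of 8 members, with Fabp4, Lpl, Plin1 and Plin4 at 2.41, 2.65, 2.31 and 2.39, but in 3 of 8 without CBL0137 replicate 1, combination replicate 1 or combination replicate 2. Glial and Schwann cell genes rose in 9 of 14, with Gfap, Ngfr and Cnp at 2.00, 1.75 and 0.96, while Gap43, which growing axons also carry, fell by 1.67. The part of these cells in the changes of interferon, antigen presentation and chemokine genes was not tested.

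Few lymphocyte markers passed the test. Of 16 T cell markers 2 rose, Il7r by 1.63 and Cd4 by 1.30, and the median of 0.39 turned negative without CBL0137 replicate 1 (-0.18), without combination replicate 1 (-0.22) and with quantile normalization (-0.02). The same count was 14 with array weights, which give the libraries unequal weight. Cd8a, the co-receptor of cytotoxic T cells, had 0.650, 1.27 and 3.29 TPM after CBL0137 and 3.64, 1.16 and 0.820 TPM after both drugs (log2 0.06 ± 0.41, adjusted p = 0.911), and the groups overlapped. Cd4 lost its call without CBL0137 replicate 1 or 2 or combination replicate 2 (adjusted p = 0.0577, 0.0562 and 0.0535), and macrophages also carry it. B cell markers rose in 2 of 11, Ebf1 and Cd22, with a list median of -0.32 that was 0.62 without CBL0137 replicate 3, and Cd22 lost its call in 6 alternatives. Of 5 natural killer and cytotoxic markers Klrk1 rose (0.150, 0.530 and 1.02 to 6.01, 2.61 and 1.26 TPM), and it missed the threshold with quantile normalization (adjusted p = 0.0569). The summed T cell level was 15.0 to 121 TPM after CBL0137 and 58.4 to 157 TPM after both drugs, with most in CBL0137 replicate 3 and combination replicate 1. No skeletal muscle or erythroid marker passed, and of the adrenal cortex and kidney markers Mc2r (0.320, 0.590 and 0.680 to 7.51, 44.5 and 1.62 TPM) and Aqp1 (18.9, 20.4 and 35.5 to 70.5, 113 and 118 TPM), which vessels also express, rose. The neutrophil granule genes Ngp, Camp and Ltf and the cytotoxic genes Ncr1, Prf1 and Eomes were below the filter. Erythroid markers rose in 5 of 7 without CBL0137 replicate 2.

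**Figure D4:**
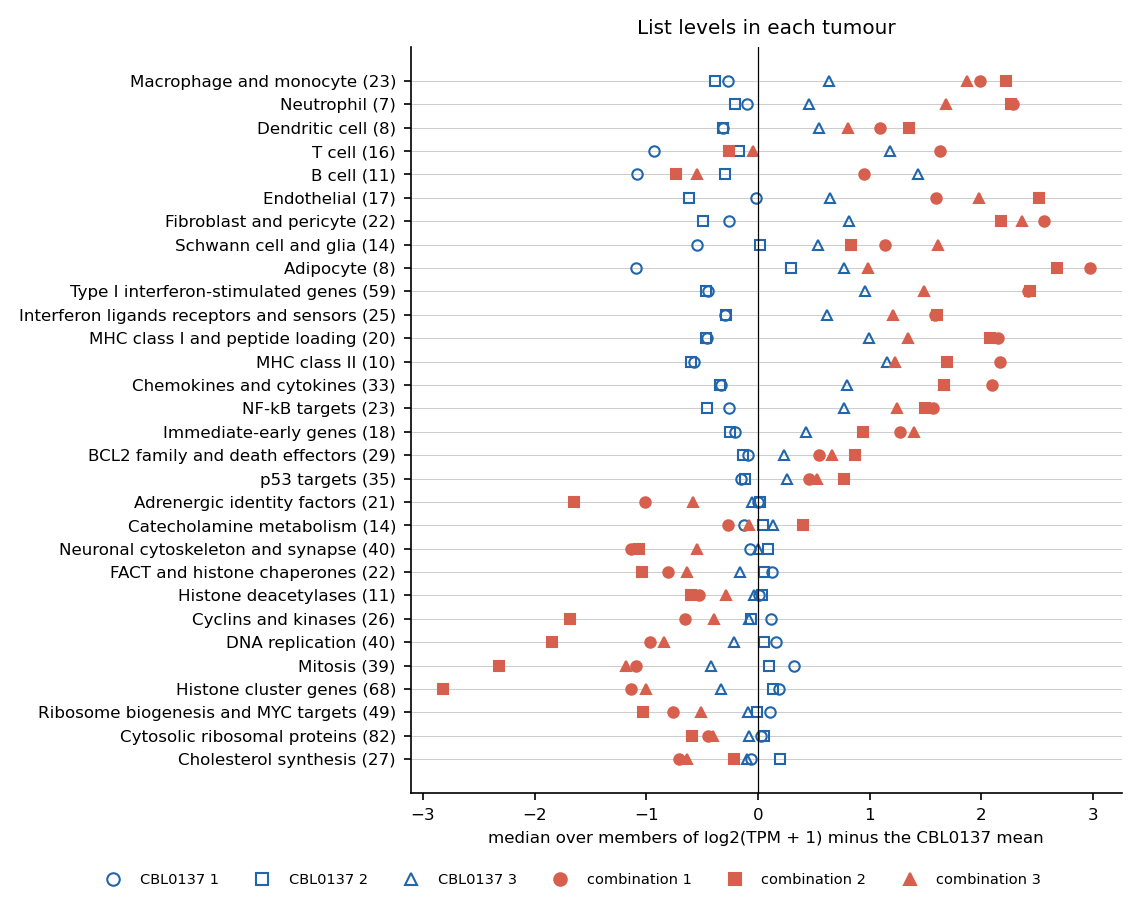
Level of each gene list in each tumour, as the median over members of log2(TPM + 1) minus the mean of the 3 CBL0137 tumours (open blue symbols CBL0137, filled red symbols combination, number of members in brackets). CBL0137 replicate 3 (triangle) is the highest of its group in the immune and stromal lists, and combination replicate 2 (square) is the lowest in the division and histone lists.

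RNA of the factors that define the sympathetic lineage fell. In whole-tumour RNA a smaller share of tumour cells and less RNA per cell cannot be told apart, here or in other lists that fell. Of 21 adrenergic identity factors 16 fell and none rose, with a median of -1.12, and 13 fell with a median of -0.80 without combination replicate 2. Isl1, a LIM-homeodomain factor of sympathetic neurons (chromosome 13, 116298270 to 116309688), had 194, 249 and 151 TPM after CBL0137 and 66.4, 46.6 and 82.6 TPM after both drugs, a log2 change of -1.60 ± 0.23 (SE, limma adjusted p = 0.000476). Every combination tumour lay below the CBL0137 tumours, with replicate 2 lowest. Dach1 and Meis1 fell by 1.43 and 1.26. Mycn, in the row of the mouse gene, had 5.97, 6.15 and 10.2 TPM after CBL0137 and 3.12, 5.37 and 11.9 TPM after both drugs and did not pass (log2 -0.24 ± 0.38, adjusted p = 0.613). Whether reads of the human transgene were counted under it is not given in the sources used here.

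Ddc, which makes dopamine from DOPA (chromosome 11, 11814101 to 11898144), had 442, 514 and 365 TPM after CBL0137 and 112, 83.1 and 122 TPM after both drugs, a log2 change of -2.05 ± 0.17 (SE, limma adjusted p = 0.000260). Th, the rate-limiting enzyme and the source of the promoter that drives the transgene, had 287, 249 and 342 TPM after CBL0137 and 150.4, 416 and 329 TPM after both drugs and did not pass (log2 -0.08 ± 0.37, adjusted p = 0.868). The groups were far apart for Ddc and overlapped for Th, whose lowest value was in combination replicate 1 and whose highest was in combination replicate 2, the tumour with adrenal cortex RNA. Cyb561, an electron carrier of secretory vesicles, fell by 1.30, and Pts, which makes a cofactor of Th, rose by 0.66 but missed the threshold without CBL0137 replicate 1 (adjusted p = 0.0534). Over the 14 genes 3 fell and 2 rose, both shares below those of all tested genes.

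Neuronal structure genes fell more widely. Of 40 cytoskeleton and synapse genes 25 fell and 1 rose, with a median of -0.90. Stmn2, a stathmin of growing axons, had 214, 248 and 197 TPM after CBL0137 and 61.1, 53.1 and 94.2 TPM after both drugs, a change of -1.68 ± 0.20, and Gap43 had 167, 216 and 171 TPM after CBL0137 and 54.7, 45.4 and 73.9 TPM after both drugs, -1.67 ± 0.20. Prph, an intermediate filament of peripheral neurons, was the 1 that rose, from 1.14, 4.07 and 3.53 to 20.0, 15.5 and 28.6 TPM (log2 2.57). Among 22 secretory genes 6 fell and 7 rose, shares near those of all tested genes. The granule proteins Scg5 and Scg3 fell by 1.59 and 1.17 and the small adaptor-like proteins Bex1 and Bex2 by 1.75 and 1.77, whereas the 7 rises included the galanin gene Gal (2.15) and Vgf (1.71), both named after their values were seen. Rises there numbered 3 without CBL0137 replicate 1 or without combination replicate 2. Of 29 ion channel genes 8 fell, a share near that of all tested genes, and 3 rose, with Cacna2d1, a calcium channel subunit, from 129, 137 and 118 to 44.0, 51.3 and 60.8 TPM, the sodium channel Scn9a down by 1.42 and Kcna1 up by 1.64 from under 1 TPM.

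Among 15 genes of the neurotrophin, Ret and Alk group 6 rose and 3 fell, shares near those of all tested genes. The neurotrophin receptors Ngfr and Ntrk2 rose by 1.75 and 1.01, both from a mean under 5 TPM, and the growth factor midkine, Mdk, went from 117, 134 and 95.4 to 55.3, 28.2 and 59.8 TPM, a fall of 1.31. Ret and Alk, tyrosine kinase receptors of neuroblastoma, did not pass. Of 8 oncofetal genes 2 rose and 3 fell, counts close to the shares over all tested genes. Lin28b, which blocks let-7 maturation, went from 16.1, 14.3 and 12.6 to 6.29, 3.04 and 7.34 TPM (log2 -1.29) and Dlk1 fell by 1.35, while Igf2 and Igf2bp2 rose by 2.11 and 2.22.

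Genes of cell division fell in nearly every listed member. All 39 mitosis genes fell, with a median of -1.52, and all 39 also fell without combination replicate 2, with a median of -1.14. Top2a, which untangles chromosomes (chromosome 11, 98992947 to 99024199), had 399, 372 and 248 TPM after CBL0137 and 155, 54.6 and 145 TPM after both drugs, a log2 change of -1.62 ± 0.35 (SE, limma adjusted p = 0.00292), and Mki67, the Ki-67 antigen, had 260.1, 235 and 166 TPM after CBL0137 and 112, 38.5 and 106 TPM after both drugs, a change of -1.47 ± 0.36. The groups did not overlap, and combination replicate 2 was far below the other tumours. Aspm, Nusap1, Mad2l1 and Spc24, proteins of the spindle and kinetochore, fell by 1.54, 1.60, 1.44 and 1.71. DNA replication genes fell in 38 of 40 members (median -1.24), among them Pold2, a polymerase delta subunit, by 1.49, Orc6 by 1.39 and Rfc3 by 1.08. Homologous recombination and checkpoint genes fell in 24 of 32, among them the kinases Chek1 (30.4, 28.1 and 24.6 to 11.9, 4.88 and 13.6 TPM) and Atr, by 1.47 and 0.75, and in 16 of 32 without CBL0137 replicate 1.

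The CCAAT box, a motif of many cell cycle promoters bound by NF-Y, was frequent in the windows of mitosis genes. The letters CCAAT lay on either strand in 27 of 35 windows (77.1%) of 33 members, against 37.2% of all windows and 39.7% of those of genes that fell. The GC box GGGCGG lay in 82.9%, against 59.1% of all and 63.4% of those of genes that fell. The list was made of division genes, so these shares describe the list and not the change. The 3 promoters shown are those of lowest adjusted p among mitosis genes, by the same rule as above, with CCAAT in capitals. Cenpf, a kinetochore protein (chr1:189688087-189688286, minus strand), fell by 1.42, Bub1, a checkpoint kinase (chr2:127831860-127832059, minus strand), by 1.75 and Spc25, a kinetochore subunit (chr2:69206214-69206413, minus strand), by 1.66.
Cenpf: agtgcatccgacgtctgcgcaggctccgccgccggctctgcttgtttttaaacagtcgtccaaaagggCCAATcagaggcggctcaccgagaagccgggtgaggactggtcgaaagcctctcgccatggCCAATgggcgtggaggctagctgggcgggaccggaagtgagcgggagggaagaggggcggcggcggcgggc
Bub1: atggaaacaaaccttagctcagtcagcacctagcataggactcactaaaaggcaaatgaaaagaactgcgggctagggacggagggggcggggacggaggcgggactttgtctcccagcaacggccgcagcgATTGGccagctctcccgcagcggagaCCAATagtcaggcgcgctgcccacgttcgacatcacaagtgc
Spc25: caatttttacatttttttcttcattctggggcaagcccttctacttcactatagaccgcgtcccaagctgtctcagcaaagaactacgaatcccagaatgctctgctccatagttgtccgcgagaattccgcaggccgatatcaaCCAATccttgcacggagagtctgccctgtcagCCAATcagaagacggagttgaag

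Cyclins, kinases and their inhibitors included both rises and falls. Ccnd1, the D-type cyclin of neuroblastoma, had 342, 300.1 and 316 TPM after CBL0137 and 106, 72.8 and 119 TPM after both drugs, a log2 change of -1.70 ± 0.18 (SE, limma adjusted p = 0.000262), and its kinase Cdk4 had 678, 619 and 497 TPM after CBL0137 and 231, 173 and 286 TPM after both drugs, a change of -1.39 ± 0.17. Of 26 genes listed as cyclins and kinases 14 fell and 4 rose, and the rises were Ccnd3, Rb1, Ccnd2 and Cdk6 at 1.07, 0.75, 2.54 and 1.95, the last 2 named after their values were seen. Rb1 is counted in this list but is neither a cyclin nor a kinase. Cdkn1a, which encodes p21, had 15.8, 15.9 and 47.5 TPM after CBL0137 and 48.8, 55.7 and 63.5 TPM after both drugs, a log2 change of 1.24 ± 0.36 (SE, limma adjusted p = 0.0139), and CBL0137 replicate 3 lay just under the lowest combination tumour. Without CBL0137 replicate 1 or 2 it missed the threshold (adjusted p = 0.0589 and 0.0579). Of 8 inhibitor genes 3 rose and 2 fell, shares near those of all tested genes. Cdkn2b and Cdkn1c rose by 1.33 and 0.95, and Cdkn1b and Cdkn2d fell by 0.75 and 1.01.

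Ribosome assembly fell with division. Of 49 ribosome biogenesis genes and MYC targets 43 fell and none rose (median -0.73). Nme1, a nucleoside diphosphate kinase, went from 409, 413 and 328 to 169, 138 and 200.2 TPM (log2 -1.18 ± 0.14), and Nop16, Wdr75 and Rrn3, factors of ribosomal RNA synthesis and processing, fell by 1.08, 0.95 and 0.80. The E-box CACGTG, a motif bound by MYC and MAX, lay on either strand in 10 of 55 windows (18.2%) of these genes. The share was 9.40% of all windows and 10.2% of those of genes that fell. MYC targets were put in this list by choice, so its share describes the list and not the change. Cytosolic ribosomal protein genes fell in 68 of 82 with a median of -0.48, and in 34 with quantile normalization. In the MYC network 5 of 12 rose and 2 fell, counts close to the shares over all tested genes. Mxd1 and Mxd4, antagonists of MYC, rose by 1.62 and 1.25, while Mxd3 and Mxi1, of the same family, fell by 1.64 and 0.79.

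Heterochromatin and DNA methylation genes fell in 13 of 22 members (median -0.57) and Ezh1 rose. Cbx3, a heterochromatin protein, went from 639, 627 and 468 to 229, 161 and 242 TPM (log2 -1.46 ± 0.17), and Cbx5, Trim28 and Tet1 fell by 1.14, 0.96 and 1.26.

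Death and p53 genes rose in part. Of 35 tested p53 targets 20 rose and 4 fell (median 0.63), and 13 rose without CBL0137 replicate 1. Pmaip1, which encodes Noxa, and the death receptor Tnfrsf10b rose by 1.69 and 1.58 from under 5.3 TPM, Phlda3 by 1.60 and the repair polymerase Polk by 1.08. Mdm2, the ubiquitin ligase of p53 (chromosome 10, 117688875 to 117710758), had 41.2, 37.1 and 46.9 TPM after CBL0137 and 57.4, 58.9 and 59.8 TPM after both drugs, a log2 change of 0.49 ± 0.12 (SE, limma adjusted p = 0.00636). Of 29 BCL2 family and death genes 16 rose and 4 fell. Bcl2l11, the pro-death protein Bim, had 8.29, 5.77 and 11.1 TPM after CBL0137 and 14.9, 25.8 and 17.7 TPM after both drugs (log2 1.13 ± 0.27), and Mcl1, a survival protein, had 87.9, 91.2 and 122 TPM after CBL0137 and 192, 189 and 175 TPM after both drugs (log2 0.89 ± 0.13), so genes that promote and oppose death both rose. The necroptosis kinases Ripk1 and Ripk3 rose by 1.63 and 2.07, and Hrk, a neuronal death gene, went from 19.9, 22.6 and 18.1 to 4.13, 2.77 and 5.50 TPM, a fall of 2.07.

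Early-response and stress genes rose on balance. Immediate-early genes rose in 14 of 18 (median 1.14), with Junb, Fosl2 and Atf3 at 1.76, 2.18 and 1.82 and the RNA decay factor Zfp36 from 4.91, 4.17 and 11.7 to 37.6, 33.7 and 35.0 TPM (log2 2.32). Kruppel-like factors rose in 9 of 14, with Klf3, Klf4, Klf6 and Klf9 at 1.94, 1.73, 1.61 and 1.33. Metallothioneins and glucocorticoid-responsive genes rose in 11 of 15, with Mt1, which binds zinc and copper, at 223, 205 and 264 TPM after CBL0137 and 1045, 768 and 767 TPM after both drugs (log2 1.89 ± 0.19), Cebpb at 2.10 and Errfi1 at 2.07. The clock repressors Bhlhe40, Nr1d1 and Nr1d2 rose by 1.71, 1.18 and 1.25, in a list where 11 of 19 rose and 3 fell, and 6 rose with quantile normalization.

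Chaperones and metabolism moved apart within their lists. Hsp90aa1, the inducible cytosolic HSP90, had 1654, 1555 and 1292 TPM after CBL0137 and 665, 594 and 813 TPM after both drugs (log2 -1.12 ± 0.14) and its co-chaperone Stip1 fell by 0.98, whereas Hspa1b, an inducible HSP70 with a near-identical copy in Hspa1a, went from 3.24, 2.65 and 6.50 to 15.8, 20.5 and 22.9 TPM (log2 2.07) and Hspa2 rose by 1.14. Over that list 12 of 23 fell and 7 rose, and 7 fell without CBL0137 replicate 1, CBL0137 replicate 2 or combination replicate 1. Cholesterol synthesis genes fell in 14 of 27. Cyp51, which demethylates lanosterol, had 28.8, 36.7 and 26.4 TPM after CBL0137 and 9.23, 11.7 and 12.4 TPM after both drugs, a log2 change of -1.38 ± 0.16 (SE, limma adjusted p = 0.000266), and Sqle and Pmvk, also enzymes of the pathway, fell by 1.40 and 0.74, while the fatty acid genes Scd1 and Fasn, named after their values were seen, rose by 3.05 and 1.13. Among 12 polyamine genes 4 rose, a share near that of all tested genes, and 4 fell. The catabolic enzymes Smox, Sat1 and Paox rose by 1.70, 1.41 and 0.95 and the synthetic enzyme gene Amd2, a near-identical copy of Amd1, fell by 1.01. The list's median was 0.08 and turned negative with TMM, quantile or rescaled values and with array weights. In the amino acid and unfolded protein list 11 of 27 rose and 5 fell, counts close to the shares over all tested genes. Its median was 0.00, and the sign changed in 6 alternatives. Slc3a2 and Xbp1 rose by 0.97 and 0.94, and Psat1 and Gars fell by 0.97 and 0.66. Nuclear oxidative phosphorylation genes had a median of 0.00, with 7 of 81 up and 9 down.

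How far panobinostat's change in CBL0137-treated tumours resembled its change in tumours without CBL0137 can be described from 2 comparisons whose group means share no library. Panobinostat alone against vehicle raised 3959 genes (25.5%) and lowered 2613 (16.9%). Of its 2 tumours, replicate 3 held skeletal muscle RNA (Acta1 at 3110 TPM, and 2.66 TPM in replicate 1). The skeletal muscle list had a median of 3.55 in that comparison, with 0 members called. Of the 5146 genes that rose with CBL0137, 3475 (67.5%) also rose without it, which is 87.8% of the latter's rises, and 2114 falls were shared, 57.5% and 80.9% of each list. Across the 15497 genes Pearson's r was 0.83 and Spearman's rho 0.86, with a slope of 0.84, over values that share library type and scaling. Genes are not independent replicates, and both sets of calls used 1 estimate of each gene's spread from all 11 libraries. List medians with and without CBL0137 were 2.12 and 1.77 for interferon-stimulated genes, 2.09 and 2.72 for macrophage markers, 2.27 and 2.94 for fibroblast markers, -1.52 and -0.94 for mitosis genes, and -1.12 and -0.39 for adrenergic identity factors.

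**Figure D5:**
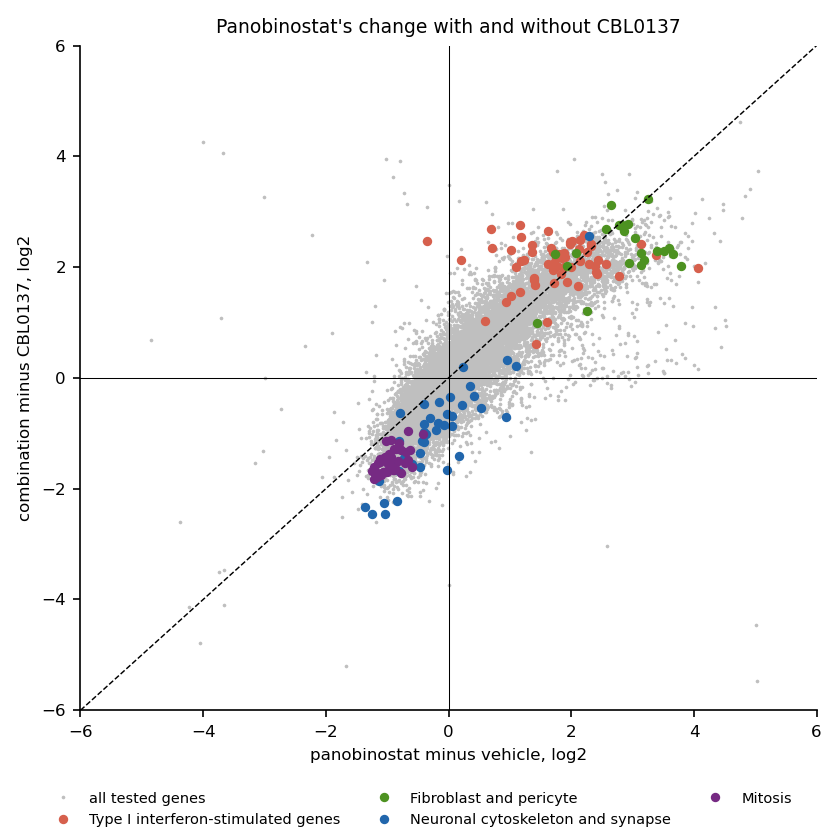
Log2 change after panobinostat in tumours given CBL0137 (vertical) against that in tumours not given it (horizontal), 1 point per tested gene, with 4 lists coloured and a dashed line of equality. Mitosis genes lie low on both axes and fibroblast markers high on both, several neuronal genes lie below the line, and 1 gene falls outside the axes.

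The difference between these changes was tested for each gene, and limma called 0 of 15497 (smallest adjusted p = 0.304), with 1631 genes (10.5%) at an unadjusted p under 0.05. The count was 11 with array weights, 45 without panobinostat replicate 1, which leaves that group with 1 tumour of assumed spread, 8 without combination replicate 3, 2 without vehicle replicate 2 and 1 without CBL0137 replicate 1. No gene is therefore shown to respond differently, and the values of a few are given side by side. They include Ddc, whose adjusted p was the smallest reached, and do not stand for all tested genes. Ddc changed by -2.05 with CBL0137 and -0.47 without it, a difference of -1.58 ± 0.25 (SE, adjusted p = 0.304). Gap43 changed by -1.67 and -0.03 (difference -1.64 ± 0.30), Adcyap1 by -2.29 and -0.10, and Stmn3 by -2.33 and -1.36. Oas3 changed by 2.68 and 0.69 and Bcl2a1b by 1.68 and 3.20. Mdm2 changed by 0.49 and -0.30, and vehicle tumours held 51.7, 40.7 and 46.1 TPM while panobinostat tumours held 40.6 and 34.1 TPM, so the 3 combination tumours held the highest values of the 11.

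Genes called in opposite directions numbered 16. Those that rose with CBL0137 and fell without it were Ranbp2, Dck, Acsl5, Nsmaf, Ppp2r1b, Psme4, Lap3, Tomm34, Eif1a and Cggbp1. Dck, the kinase that activates deoxynucleosides, had 57.0, 57.3 and 52.2 TPM after CBL0137 and 100.3, 82.1 and 64.4 TPM after both drugs. Vehicle tumours held 66.3, 54.0 and 59.2 TPM of it and panobinostat tumours 37.2 and 35.0 TPM, with changes of 0.54 and -0.71. Ranbp2, a nucleoporin, changed by 0.47 and -0.36 and had the smallest adjusted p of the difference among the 16, 0.304. The combination tumours were above the CBL0137 tumours in both genes, and the panobinostat tumours below vehicle. The 6 that fell with CBL0137 and rose without it were Mir1197, Nkain4, 2810405F15Rik, Dok7, Lrrc3 and Cacnb1, of which Mir1197 was listed at 0 TPM in all 3 combination tumours and 2 vehicle tumours and Cacnb1, a calcium channel subunit, changed by -0.47 and 0.84. Cacnb1 had 13.73 and 20.95 TPM in panobinostat replicates 1 and 3. Replicate 3 is the tumour with the most skeletal muscle RNA, and the part of that RNA in these 6 changes was not tested.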

How the data were processed

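RNA from 11 whole tumours was sequenced as ribosomal-depleted stranded libraries, and the authors deposited 1 table of TPM values per gene and tumour. STAR, SAMtools, RSEM and mm10 are named in the submitters' processing notes, while versions and annotation are not given in the sources used here. The deposited TPM values carry no read counts, so the depth of each library is unknown and no counting interval is given. TPM sums to a fixed total, so levels are shares. Genes under 1 TPM in all but 1 of the 11 libraries were dropped (8914 of 24411), and 27 symbols turned into dates were restored from their transcript IDs. limma 3.58.1 (R 4.3.3) was fitted to log2(TPM + 1) over 4 group means with a trended prior (7 residual degrees of freedom), on all 11 libraries so that groups share 1 estimate of spread, with Benjamini-Hochberg adjustment over 15497 genes. The same fit gave the difference between the changes with and without CBL0137. The fit was tested on simulated data. P-values measure the spread between the labelled tumours. Named genes were the 12 furthest rises and falls by the rule given with them, up to 4 called members of lowest adjusted p per list, and a fixed panel of 25. Hdac8, Daxx, Irf9, Ccl25, Prph, Ezh1, the genes named as not passing outside that panel, and those so marked in the text were named after their values were seen, and promoters by their own rule. The members, lists and tests were chosen with earlier results of these data known. Each choice was varied alone: the pseudocount (0.1 or 5), the filter (none or 5 TPM), the scaling (TMM, quantile, or without small RNA and histone cluster genes), the model (array weights, untrended prior, replicate number as a block, or the compared groups alone) and the libraries (each left out). Promoter windows came from RefSeq on GRCm38.p6 and matched 11577 of the tested genes. Python 3.11.15 with pandas 2.3.3, numpy 2.4.6 and matplotlib 3.10.9 made summaries and plots. Some genes are not reported here.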

Additional observations from a re-analysis of the deposited data

How the results depend on the processing

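With 3 tumours a group, 1 library can move a list, and the fixed TPM total makes levels relative. Over 22 alternatives the number of genes that rose ran from 3892 (quantile normalization) to 5892 (array weights) and the number that fell from 3001 to 5361. Leaving out 1 library gave 4134 to 5169 rises and 3001 to 3770 falls, and 4007 rises and 2790 falls held in all 11 such fits. Of 216 named genes called, 206 kept their call in every alternative that tested them and 10 lost it in at least 1, with 4 of the 216 absent from at least 1 alternative. The count of genes whose change differed with and without CBL0137 was 0 in the fit reported, 11 with array weights and 0 to 45 with 1 library left out, with 0 called by the replicate block. With the replicate number as a block 4846 genes rose and 3472 fell. The values gave no sign that the numbers pair the tumours. Deviations of same-numbered CBL0137 and combination tumours correlated at -0.26, -0.11 and -0.21, and no tumour correlated best with its own number. With 3 tumours per group this cannot show that the numbers mark nothing shared. Of the named genes Cd8a, Mycn and Th, none of which had passed, changed sign. Cd8a was -0.022 with TMM factors, -0.39 with quantile normalization and -0.016 after rescaling without small RNA and histone cluster genes, and -0.35 to 0.44 with 1 library left out. Mycn ran from -0.68 to 0.14 and Th from -0.38 to 0.35 with 1 library left out. The polyamine list's median was -0.085 with TMM factors, -0.022 with quantile normalization, -0.052 after that rescaling and -0.025 with array weights. The medians of the T cell, B cell, skeletal muscle, catecholamine, neuropeptide, MYC network, amino acid stress and oxidative phosphorylation lists also changed sign in at least 1 alternative. The cause was not tested. The histone cluster list could not be rescaled without its own members.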
